A study of Mus musculus with 12 samples.

Results

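A set of 9 genes that encode transcription factors of the pancreatic islet was followed in islet RNA from mice with and without a working Wfs1 gene. They are Pdx1, Nkx6-1, Nkx2-2, Mafa, Neurod1, Pax6, Isl1, Foxa2 and Rfx6. The 9 were chosen by name, and each has 1 entry among the 24078 entries of the islet expression table. Islet RNA came from 4 wild-type mice (WT), 4 heterozygotes (Wfs1HZ) and 4 homozygotes (Wfs1KO) for the Wfs1tm1Koks allele, with 1 library for each animal. In this allele a LacZ cassette takes the place of most of exon 8, and a truncated fusion protein is still made, so the model is not a full deletion of the protein. All mice were male F2 hybrids from a cross between C57BL/6 and another inbred strain, aged 5 to 6 months, and all islets were handpicked and kept in a medium with high glucose before RNA was isolated. The unit is RPKM, reads per kilobase of transcript and per unit of mapped reads, and each value below is the level of 1 animal unless a mean is named.

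These factors form the core of the network that makes and maintains the endocrine cells of the islet. Pdx1, Nkx6-1 and Mafa are the factors most closely tied to the beta cell, where they bind near the insulin genes and near genes of glucose sensing. Neurod1, Nkx2-2, Pax6, Isl1, Foxa2 and Rfx6 are active in several or all endocrine cell types, the alpha cells that make glucagon included. Islet RNA of a whole islet is a sum over these cell types, and a lower level in such a sample cannot be told apart between fewer cells of a type and less RNA per cell.

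The mean level of the targeted gene was highest in WT and lowest in Wfs1KO islets, but Wfs1HZ and Wfs1KO animals overlapped. Wfs1 stood at 24.85 to 33.94 RPKM in WT, 4.69 to 16.43 in Wfs1HZ and 2.45 to 6.61 in Wfs1KO islets. Wfs1HZ replicate 2, at 4.69 RPKM, lay below Wfs1KO replicates 1 (5.08) and 2 (6.61). The genotypes WT and Wfs1KO did not overlap (log2 difference -2.76, SE 0.29, adjusted p = 0.04 by limma). The RPKM denominators were estimated at 2190000 to 9567000 reads per library. The paper reports more reads than this for each sample, and the difference was not looked into. Islet hormones were abundant in all 12 libraries, and Gcg, the glucagon gene, was higher than Ins1 and Ins2 together in 7 of them. Exocrine RNA was present as well. The summed level of the 11 acinar markers that have an entry, of 12 listed, ran from 48290 to 106495 RPKM in WT, from 7959 to 284060 in Wfs1HZ and from 7583 to 252821 in Wfs1KO islets, and none of the 11 was at 0 in all libraries. Wfs1HZ replicate 4 and Wfs1KO replicate 3 held the most of it. Wfs1HZ replicate 2 and Wfs1KO replicate 4 held the lowest. The stromal markers were highest in Wfs1HZ replicate 2, with a sum of 177.9 RPKM against 4.74 to 67.5 in the other libraries.

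No member differed between genotypes beyond the spread between animals. Of the 8 members that passed the filter of a mean of at least 0.1 RPKM, 0 had an adjusted p under 0.05 by limma with Benjamini-Hochberg adjustment over 21701 transcripts, and 0 had an unadjusted p under 0.05, in any of the 3 comparisons. Over all transcripts tested, 0.0138% were called at the adjusted threshold between Wfs1KO and WT, 0% between Wfs1KO and Wfs1HZ and 0% between Wfs1HZ and WT. At the unadjusted threshold the shares over all transcripts were 5.64%, 2.45% and 2.35%. The animals of a pair of genotypes overlapped for each of the 9 members, while 2.74%, 1.43% and 1.66% of all transcripts tested did not overlap in the same comparisons. With 8 members, a count of 0 is close to what these shares give. The median log2 difference of the 8 members was -0.18 between Wfs1KO and WT, 0.20 between Wfs1KO and Wfs1HZ and -0.35 between Wfs1HZ and WT, against 0.07, 0.04 and 0.04 over all transcripts tested. Scaling without acinar markers and hormones moved the median of all transcripts between Wfs1KO and WT to -0.03. After median-of-ratios scaling Pax6 reached an unadjusted p of 0.0142 between Wfs1KO and WT and Rfx6 0.0382 between Wfs1HZ and WT, with adjusted p of 0.611 and 0.962 by limma.

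**Figure D1:**
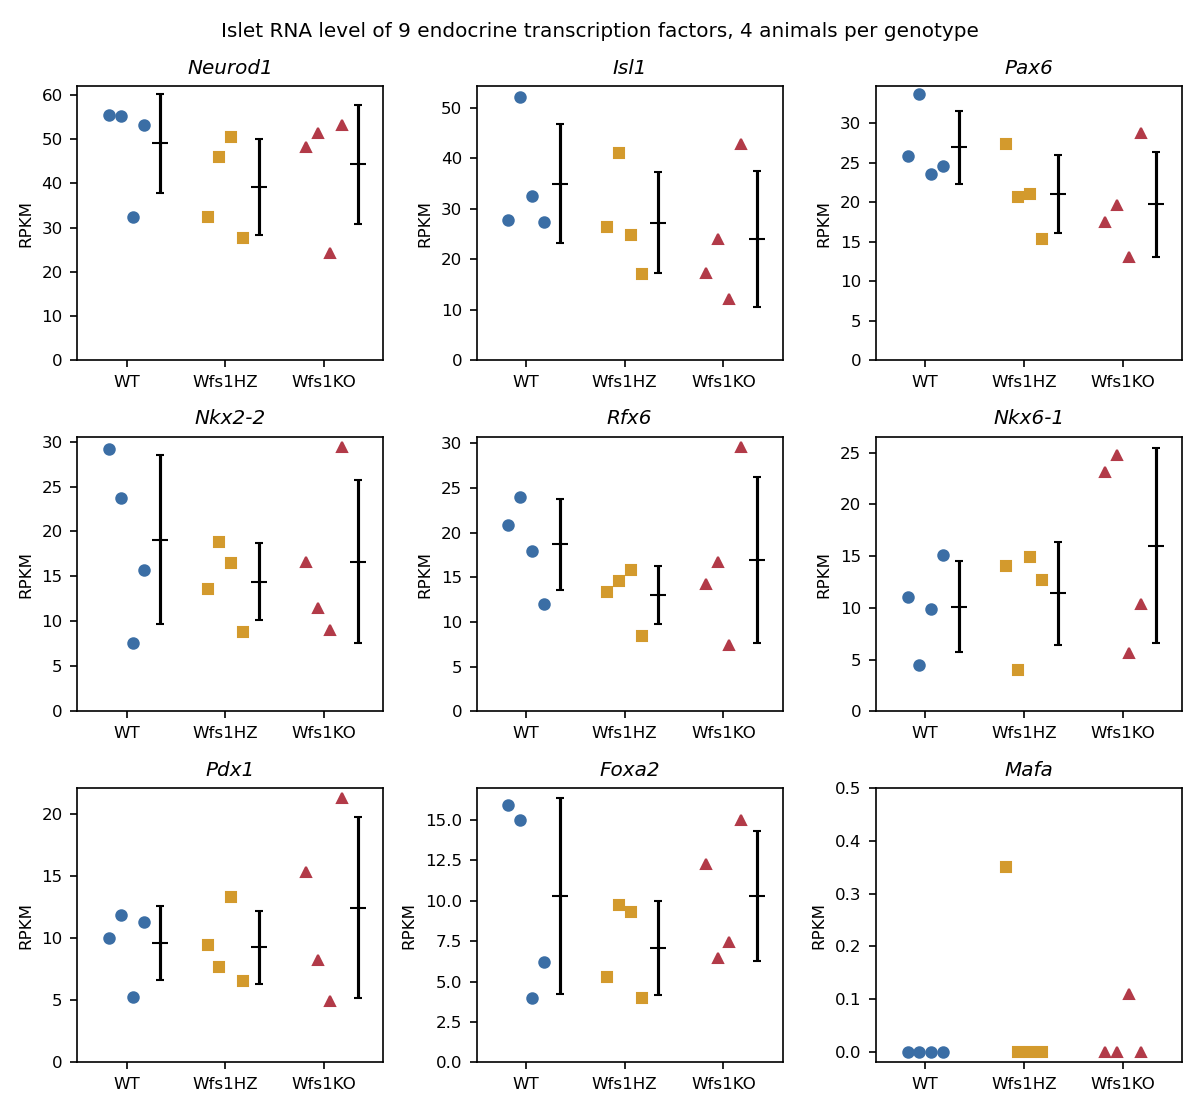
RPKM of the 9 factors in each of 12 animals, with 1 panel for each gene and its own y axis. Points are animals from replicate 1 (left) to 4 (right), and the black bars are the mean and SD of 4 animals (none is drawn for Mafa, which is listed at 0 in 10 animals). The genotypes overlap in every panel.

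The beta-cell factor Pdx1, which activates the insulin genes, was measured at 10.02, 11.89, 5.29 and 11.32 RPKM in the 4 WT animals, 9.45, 7.72, 13.31 and 6.6 in the Wfs1HZ animals and 15.35, 8.27, 4.97 and 21.31 in the Wfs1KO animals. The Wfs1KO animals held both the lowest and the highest of the 12 values. The mean level was 9.63 ± 2.997 RPKM in WT, 9.27 ± 2.94 in Wfs1HZ and 12.5 ± 7.31 in Wfs1KO islets (SD, n = 4 each). The fold difference between Wfs1KO and WT was 1.17 with a 95% interval of 0.574 to 2.39 (adjusted p = 0.973 by limma and p = 0.686 by the exact two-sided permutation test). Against Wfs1HZ it was 1.20, with an interval of 0.611 to 2.37.

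Nkx6-1, a homeodomain factor that holds the beta-cell identity and keeps alpha-cell genes off, had 11.03, 4.51, 9.86 and 15.12 RPKM in WT, 14.08, 4.03, 14.88 and 12.66 in Wfs1HZ and 23.17, 24.81, 5.69 and 10.41 in Wfs1KO islets. The highest values were in Wfs1KO replicates 1 and 2, above every WT and Wfs1HZ animal, whereas the other two Wfs1KO animals lay within the range of WT. The mean was 10.1 ± 4.37 RPKM in WT, 11.4 ± 5.01 in Wfs1HZ and 16.0 ± 9.43 in Wfs1KO islets (SD, n = 4 each). Nkx6-1 had the largest positive log2 difference of the members between Wfs1KO and WT, 0.55 (SE 0.52, adjusted p = 0.934 by limma and p = 0.457 by the exact two-sided permutation test). Its 95% interval, 0.644-fold to 3.30-fold, was also wide.

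Nkx2-2, which represses genes of other endocrine types in the beta cell, was at 29.19, 23.73, 7.64 and 15.77 RPKM in WT, 13.6, 18.82, 16.52 and 8.8 in Wfs1HZ and 16.64, 11.53, 9.0 and 29.41 in Wfs1KO islets. The lowest value came from WT replicate 3, and the range of the Wfs1HZ animals lay within that of WT. The fold difference was 0.884 between Wfs1KO and WT, with a 95% interval of 0.421 to 1.85, and 0.818 between Wfs1HZ and WT, with an interval of 0.431 to 1.55.

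Foxa2, a forkhead factor that opens chromatin at endocrine genes, had 15.95, 15.01, 4.0 and 6.2 RPKM in WT, 5.28, 9.77, 9.32 and 3.99 in Wfs1HZ and 12.25, 6.45, 7.46 and 15.01 in Wfs1KO islets. The 4 WT values fell into a high and a low pair, so that the coefficient of variation, 59.0%, was the highest of any member in WT islets. Foxa2 had the largest difference between Wfs1KO and Wfs1HZ among the members, a log2 value of 0.54 (SE 0.39, adjusted p = 1 by limma and p = 0.257 by the exact two-sided permutation test).

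Neurod1, a bHLH factor of all endocrine cells that also binds the insulin promoter, was the most abundant member. Its values were 55.46, 55.09, 32.32 and 53.18 RPKM in WT, 32.39, 45.99, 50.42 and 27.71 in Wfs1HZ and 48.21, 51.45, 24.36 and 53.12 in Wfs1KO islets. In WT and in Wfs1KO islets 3 animals lay close together and replicate 3 stood below them. The mean was 49.0 ± 11.2 RPKM in WT, 39.1 ± 10.8 in Wfs1HZ and 44.3 ± 13.4 in Wfs1KO islets (SD, n = 4 each). The fold difference between Wfs1KO and WT was 0.885, with a 95% interval of 0.560 to 1.40.

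Pax6, which has a paired domain and a homeodomain and activates glucagon and insulin, stood at 25.82, 33.65, 23.55 and 24.63 RPKM in WT, 27.33, 20.68, 20.98 and 15.29 in Wfs1HZ and 17.53, 19.69, 13.01 and 28.73 in Wfs1KO islets. In Wfs1KO islets 3 of the 4 animals lay below every WT animal, and replicate 4 lay above 3 of the 4 WT animals. The mean was 26.9 ± 4.59 RPKM in WT, 21.1 ± 4.92 in Wfs1HZ and 19.7 ± 6.61 in Wfs1KO islets (SD, n = 4 each). Between Wfs1KO and WT the log2 difference was -0.49 with a standard error of 0.25, the lowest unadjusted p of the members in this comparison, 0.0774 (adjusted p = 0.879 by limma and p = 0.114 by the exact two-sided permutation test). Without Wfs1KO replicate 4 it was -0.69, with an unadjusted p of 0.0098 and an adjusted p of 0.451 by limma. Without Wfs1KO replicate 3 the log2 difference was -0.31. No other fit with an animal left out gave Pax6 an unadjusted p under 0.05 by limma in this comparison.

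Isl1, a LIM-homeodomain factor needed for the survival of endocrine cells, had 27.87, 52.24, 32.5 and 27.4 RPKM in WT, 26.32, 41.0, 24.74 and 17.07 in Wfs1HZ and 17.26, 24.03, 12.19 and 42.86 in Wfs1KO islets. As with Pax6, 3 Wfs1KO animals lay below every WT animal and replicate 4 did not. The log2 difference between Wfs1KO and WT was -0.64 with a standard error of 0.38, the largest negative one of the members (adjusted p = 0.879 by limma and p = 0.2 by the exact two-sided permutation test). Its 95% interval in fold was 0.354 to 1.16. Without Wfs1KO replicate 4 the log2 difference was -0.97, with an unadjusted p of 0.0135 and an adjusted p of 0.48 by limma. Without Wfs1KO replicate 3 it was -0.37. Isl1 had no unadjusted p under 0.05 by limma in the other fits of this comparison with an animal left out.

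Rfx6, a winged-helix factor that acts early in the endocrine lineage and stays on in the mature islet, had 20.89, 23.97, 18.0 and 12.03 RPKM in WT, 13.35, 14.59, 15.77 and 8.41 in Wfs1HZ and 14.25, 16.71, 7.38 and 29.59 in Wfs1KO islets. The Wfs1KO animals spanned the widest range, and the Wfs1HZ animals the narrowest. Between Wfs1HZ and WT the mean was 13.0 ± 3.23 against 18.7 ± 5.08 RPKM (SD, n = 4 each), a log2 difference of -0.51 with a standard error of 0.28 and an unadjusted p of 0.0986 (adjusted p = 1 by limma and p = 0.143 by the exact two-sided permutation test). This was the lowest unadjusted p of the members in that comparison. Without WT replicate 4 the log2 difference was -0.71, with an unadjusted p of 0.0286.

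**Figure D2:**
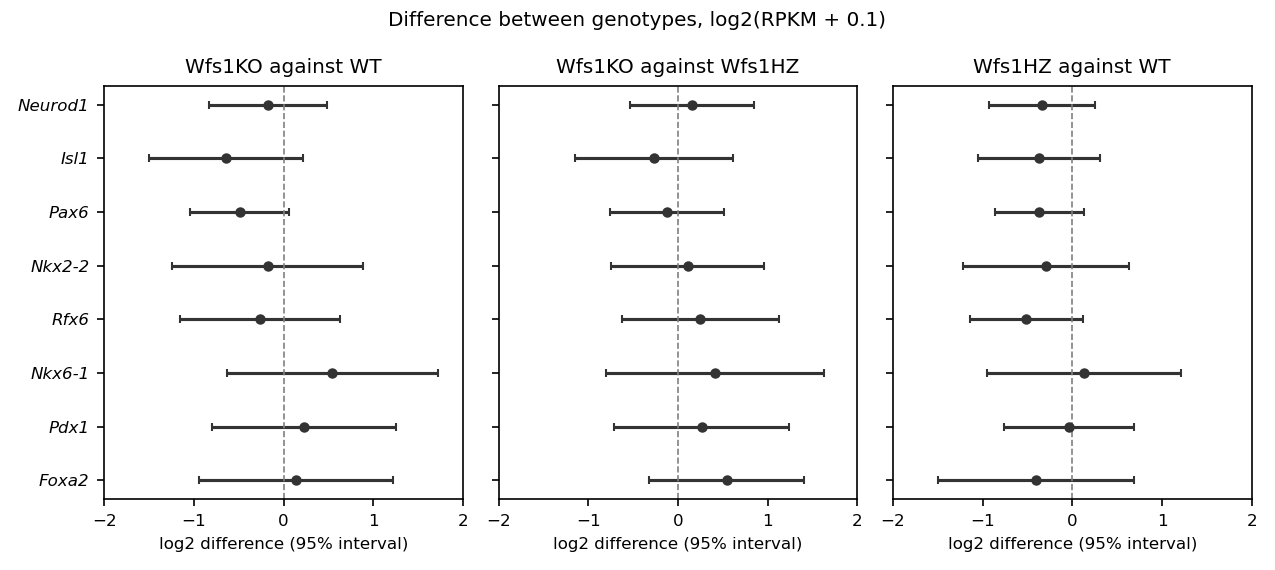
Difference in mean log2(RPKM + 0.1) between genotypes for the 8 factors tested, with 95% intervals from limma (4 animals against 4). The dashed line marks no difference, and all 24 intervals cross it, the closest being that of Pax6 between Wfs1KO and WT, from -1.04 to 0.07.

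The precision of these comparisons was set by the spread between animals. The 95% intervals of the 8 factors in the 3 comparisons reached from 0.354-fold (Isl1 between Wfs1KO and WT, and Foxa2 between Wfs1HZ and WT) to 3.30-fold (Nkx6-1 between Wfs1KO and WT). The tests therefore do not show that the levels were equal. The exact permutation test of 4 against 4 animals cannot give a p below 0.029, and the lowest among the members was 0.114.

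Many of the low and high values of the members fell on the same libraries. Within the Wfs1HZ animals, replicate 4 held the lowest value for 7 of the 8 factors, and within the Wfs1KO animals replicate 3 did so for 7 of the 8. These are the libraries with the highest acinar marker sums, 284060 and 252821 RPKM. Wfs1KO replicate 4, with the lowest acinar sum (7583 RPKM), held the highest Wfs1KO value for 7 of the 8 factors. Wfs1HZ replicate 2 had nearly as low an acinar sum (7959 RPKM) but held the highest Wfs1HZ value for 3 of the 8 factors and the lowest for 1. Nkx6-1 was the exception in Wfs1HZ replicate 4 and Wfs1KO replicate 4, and Foxa2 in Wfs1KO replicate 3. The median-of-ratios factors, which follow the typical transcript, were 0.641 in Wfs1HZ replicate 4, 0.813 in Wfs1KO replicate 3 and 1.20 in Wfs1KO replicate 4. Other transcripts were thus low in the low libraries too. The highest factor, 1.39, was that of Wfs1HZ replicate 2, in which the members were not uniformly high. The part of exocrine RNA in the levels of the members was not tested beyond the correlations given further on. Leaving out Wfs1HZ replicates 2 and 4 and Wfs1KO replicate 3 was a choice made after the data had been seen. With it, 0 members had an unadjusted p under 0.05 in any comparison, and the share over all transcripts was not counted. Between Wfs1KO and WT this choice leaves out Wfs1KO replicate 3 alone, and the sign of the difference turned for Neurod1 (0.09), Nkx2-2 (0.07) and Rfx6 (0.08).

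The order of the mean levels over 12 animals was Neurod1 (44.1 RPKM), Isl1 (28.8), Pax6 (22.6), Nkx2-2 (16.7), Rfx6 (16.2), Nkx6-1 (12.5), Pdx1 (10.46), Foxa2 (9.22) and Mafa (0.0383). Neurod1 was above Isl1 in 11 of 12 libraries, and Foxa2 above Mafa in 12 of 12. Other neighbours changed places more often: Nkx2-2 was above Rfx6 in 8 libraries, Rfx6 above Nkx6-1 in 7 and Pdx1 above Foxa2 in 8. RPKM is already scaled to length, but the transcript lengths that entered it are not given in the sources used here, so the order rests on the authors' choice of transcript.

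Mafa, which drives insulin transcription in mature beta cells and is used as a mark of their maturity, was all but unread. It is listed at 0 in the 4 WT animals, at 0.35, 0, 0 and 0 RPKM in Wfs1HZ and at 0, 0, 0.11 and 0 RPKM in Wfs1KO islets. With the estimated depths and the 1080 nt of its coding sequence, the stop codon included, the values above 0 are 2.00 and 0.956 reads. With the whole annotated transcript of 2739 nt they would be 5.07 and 2.42 reads. The deposited values have 2 decimals, and of these only 2.42 is far from a whole number. A level of 3 reads corresponds, for the coding length, to 0.290 RPKM in the deepest library and to 1.27 RPKM in the shallowest, so that a level below this was not detectable, counting error only. Mafa failed the filter on low values and no genotype comparison is given for it.

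Base composition set Mafa apart from the other members. Mafa spans chr15:75745490-75748228 on the minus strand (GRCm38, which is mm10) and has a single exon, 64.95% of which is G or C, a value at percentile 99.2 of the annotated entries. The GC share of the other members ran from 43.6% (Neurod1) over 44.8% (Rfx6), 45.7% (Isl1), 50.3% (Pax6), 55.7% (Pdx1 and Nkx2-2) and 57% (Foxa2) to 59.0% (Nkx6-1). The coding sequence alone was 71.1% GC in Mafa, 66.8% in Nkx6-1 and 56.7% in Neurod1. To show how these sequences differ, the stretch of 120 bases with the highest GC share within the coding exon of the most abundant member, of Nkx6-1 and of Mafa is given below, in the direction of transcription from GRCm38, with no base singled out by capitals.
Neurod1, chr2:79454294-79454413, minus strand, 68.3% GC: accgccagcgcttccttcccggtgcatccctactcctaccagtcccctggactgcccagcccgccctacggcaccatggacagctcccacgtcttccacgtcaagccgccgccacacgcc
Nkx6-1, chr5:101663712-101663831, minus strand, 83.3% GC: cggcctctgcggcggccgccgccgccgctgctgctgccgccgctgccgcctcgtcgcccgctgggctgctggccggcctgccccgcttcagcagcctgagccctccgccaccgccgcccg
Mafa, chr15:75747610-75747729, minus strand, 85.8% GC: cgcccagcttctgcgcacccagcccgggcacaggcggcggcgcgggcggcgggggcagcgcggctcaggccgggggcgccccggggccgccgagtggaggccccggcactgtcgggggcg

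Across the matched protein-coding genes, the share with a mean level under 0.1 RPKM was 2.99% for genes of 45 to 50% GC, 4.58% for 55 to 60%, 8.15% for 60 to 65% and 33.0% of the 109 genes at 65% or more. The median level was 3.59 RPKM in the first of these classes, 1.30 in the class of 60 to 65% and 0.189 in the last. Mafa, at 64.95%, lies at the upper edge of the class of 60 to 65%. The part of GC content in the missing reads of Mafa was not tested, and the levels of genes that differ in GC content are compared with that limit. Between libraries, the median deviation of genes with 57 to 61% GC against those with 43 to 47% GC differed by -0.35 to 0.43 on the log2 scale, with the lowest value in WT replicate 3 and the highest in Wfs1HZ replicate 4.

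**Figure D3:**
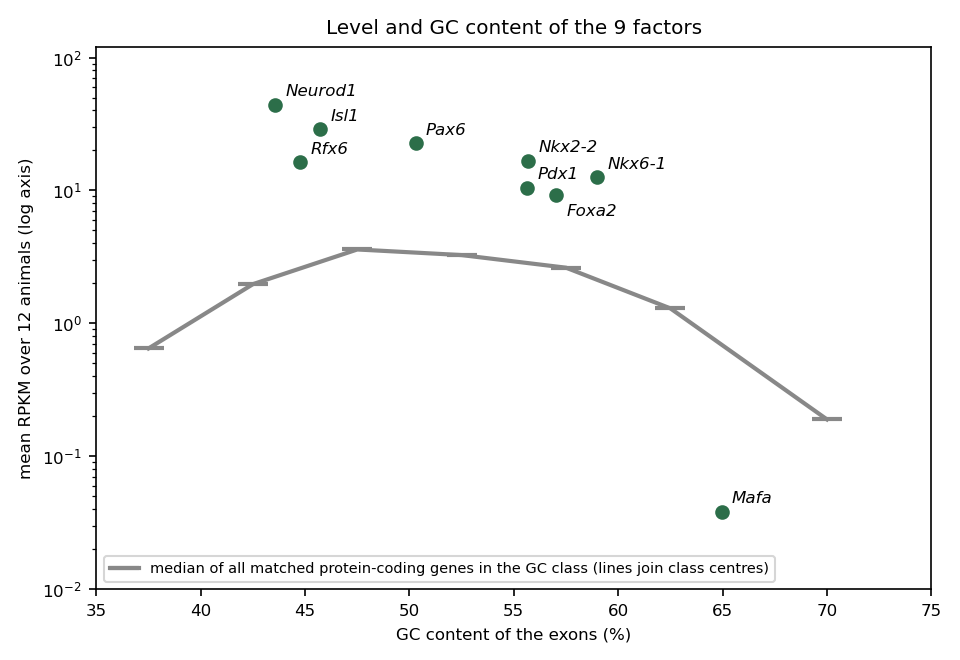
Mean RPKM over 12 animals (log axis) against the GC content of the annotated exons (%) for the 9 factors (green points). The grey line joins the medians of all matched protein-coding genes in GC classes, 3.59 RPKM at 45 to 50% GC and 0.189 RPKM at 65% or more. All factors but Mafa lie above the line.

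In the deposited RPKM the members varied together across the animals, with Nkx6-1 apart. Over the 12 animals, all of which share the same scaling to a total, the Pearson r of log2(RPKM + 0.1) between members without Nkx6-1 was 0.39 to 0.89 in 21 pairs, with a median of 0.67. For the 7 pairs with Nkx6-1 it was -0.39 to 0.29. The closest pairs were Nkx2-2 with Foxa2 (0.89) and Pax6 with Isl1 (0.87), followed by Pax6 with Rfx6 and Isl1 with Rfx6 (0.82 each). These values are a description with n = 12. With the genotype means removed, the 21 pairs had 0.49 to 0.92 and the 7 pairs -0.32 to 0.25. After median-of-ratios scaling the 21 pairs ranged from 0.05 to 0.84 and the 7 pairs with Nkx6-1 from -0.43 to 0.38. The ranges thus overlapped, and Nkx6-1 was less clearly apart. Nkx2-2 with Foxa2 kept 0.84 there, Pax6 with Isl1 0.72, Isl1 with Rfx6 0.68 and Pax6 with Rfx6 0.63, whereas Pax6 and Isl1 with Foxa2 had 0.05 and 0.06.

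**Figure D4:**
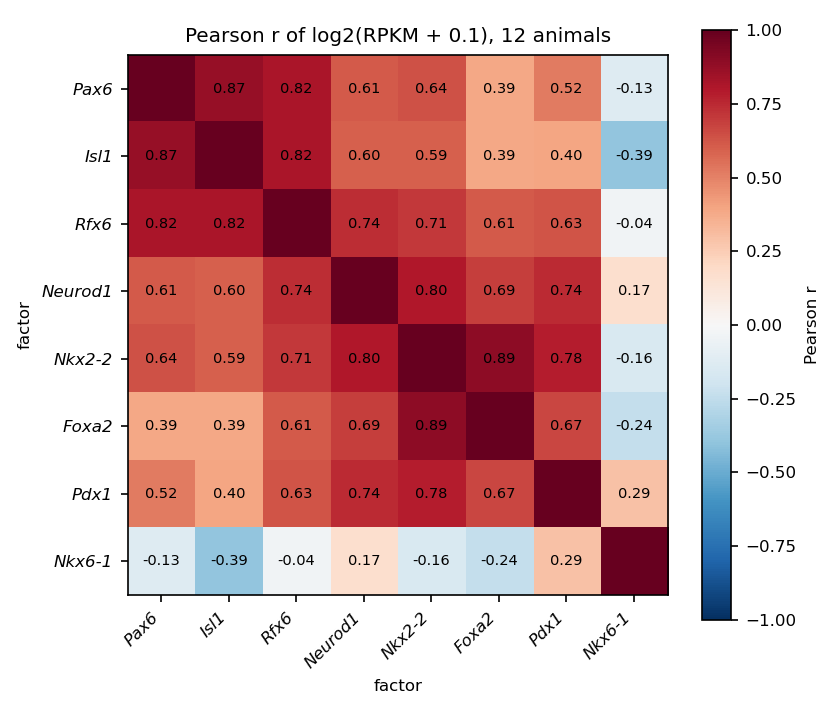
Pearson r of log2(RPKM + 0.1) over 12 animals for each pair of the 8 factors tested, with red for positive and blue for negative values. Pax6, Isl1 and Rfx6 form a block with r of 0.82 to 0.87, Nkx2-2 and Foxa2 have 0.89, and the row of Nkx6-1 runs from -0.39 to 0.29.

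Since Pax6, Isl1 and Rfx6 varied together, the 250 bases before a RefSeq start of each are shown, from the GRCm38.p6 annotation and in the direction of transcription. Capitals mark TAAT, the core to which homeodomains bind, on either strand (ATTA on the other), and CANNTG, the E-box to which bHLH factors such as Neurod1 bind. The window of Rfx6 lies inside the gene as GENCODE draws it, whose start is at 51677756 of chromosome 10.
Pax6, chr2:105668646-105668895, plus strand: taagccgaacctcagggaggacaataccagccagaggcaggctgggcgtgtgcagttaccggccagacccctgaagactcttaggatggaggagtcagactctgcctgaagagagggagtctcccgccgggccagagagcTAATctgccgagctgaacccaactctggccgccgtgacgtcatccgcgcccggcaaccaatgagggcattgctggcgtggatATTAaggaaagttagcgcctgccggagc
Isl1, chr13:116309689-116309938, minus strand: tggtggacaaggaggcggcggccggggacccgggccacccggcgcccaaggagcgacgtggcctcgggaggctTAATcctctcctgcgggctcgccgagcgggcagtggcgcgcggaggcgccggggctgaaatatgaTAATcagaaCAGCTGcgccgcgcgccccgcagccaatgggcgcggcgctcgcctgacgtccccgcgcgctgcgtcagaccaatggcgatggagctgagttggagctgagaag
Rfx6, chr10:51685268-51685517, plus strand: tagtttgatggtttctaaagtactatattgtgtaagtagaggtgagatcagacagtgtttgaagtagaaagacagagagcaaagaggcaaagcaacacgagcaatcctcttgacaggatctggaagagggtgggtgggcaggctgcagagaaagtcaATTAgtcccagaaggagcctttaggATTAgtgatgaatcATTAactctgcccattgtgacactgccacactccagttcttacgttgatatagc

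TAAT was found 2 times in the Pax6 window, 2 times in that of Isl1 and 3 times in that of Rfx6, and CANNTG once, in Isl1. Pax6 has another RefSeq start, whose window (chr2:105682213-105682462, not shown) holds TAAT 2 times and CANNTG once. Neither TATAAA nor GTAAACA, the letters of the forkhead motif that Foxa2 binds, was found in the 3 windows shown. TAAT is common: 54.9% of 32851 promoter windows of this length hold it on either strand, as do 66.2% for CANNTG, 12.4% for TATAAA and 3.17% for GTAAACA. A match is a stretch of letters and was not measured as a binding site.

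Isl1 rose and fell with glucagon RNA across the animals. The levels of the 8 factors were set against Gcg, against Ins1 plus Ins2 and against the acinar marker sum on the log2 scale, 24 relations chosen after the data had been seen. Isl1 against Gcg had Pearson's r = 0.90 (adjusted p = 0.00432) and Spearman's rho = 0.86 (adjusted p = 0.0084) over 12 animals, by permutation tests with 100000 resamples. Without the 2 animals farthest from the median of Gcg r was 0.84, with the genotype means removed 0.95 and after median-of-ratios scaling 0.84. It was the 1 relation of the 24 with an adjusted p under 0.05 by Pearson's r. Rfx6 and Pax6 against Gcg had r = 0.70 and 0.69 (adjusted p = 0.0519 each by the permutation test) and rho = 0.67 and 0.72 (adjusted p = 0.0566 and 0.0515), and without the 2 farthest animals 0.40 and 0.48. Pdx1, Nkx2-2, Neurod1 and Foxa2 had r of 0.32 to 0.45 with Gcg.

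Nkx6-1 against Ins1 plus Ins2 did not pass the threshold, with r = 0.68 and rho = 0.67 (adjusted p = 0.0565 and 0.0566 by permutation tests, n = 12), with 0.53 without the 2 farthest animals and 0.81 with genotype means removed. The other factors had r of -0.47 (Isl1) to 0.08 (Neurod1) with insulin RNA. Pdx1, a beta-cell factor too, had 0.03. Against the acinar marker sum, 7 of the 8 factors had negative values, from -0.73 (Isl1) to -0.50 (Pax6), and Nkx6-1 had 0.28. By Spearman's rho Nkx2-2 (-0.87), Foxa2 (-0.81) and Rfx6 (-0.75) had adjusted p of 0.0084, 0.0193 and 0.0433 in the permutation test, while their Pearson values had 0.0519, 0.0895 and 0.0519. After median-of-ratios scaling the acinar values ranged from -0.41 (Isl1) to 0.51 (Nkx6-1), and those of Pax6, Neurod1 and Pdx1 were 0.15, -0.05 and -0.15.

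A ratio of 2 genes within a library does not depend on the scaling of that library. The ratio of Nkx6-1 to Isl1 ran from 0.0863 in WT replicate 2 to 1.34 in Wfs1KO replicate 1. It was 0.396, 0.0863, 0.303 and 0.552 in WT, 0.535, 0.0983, 0.601 and 0.742 in Wfs1HZ and 1.34, 1.03, 0.467 and 0.243 in Wfs1KO islets. The 3 animals with the lowest ratios were also those in which insulin RNA was lowest against Gcg, with ratios of Ins1 plus Ins2 to Gcg of 0.156 (WT replicate 2), 0.0734 (Wfs1HZ replicate 2) and 0.0876 (Wfs1KO replicate 4). In the other animals that ratio was 0.422 to 2.30. On the log2 scale the 2 ratios had r = 0.79 and rho = 0.73 over the 12 animals (p = 0.00241 and 0.00985 by permutation tests with 100000 resamples), 0.71 without the 2 farthest animals and 0.94 with the genotype means removed. The pair of ratios was picked after these values were seen. It combines relations already given above, Isl1 with Gcg and Nkx6-1 with insulin RNA, so a high r follows in part from them. Its p-values are not adjusted and add no separate support. At a similar hormone ratio the Wfs1KO animals and the Wfs1HZ animals both lay above the WT animals in the plot of both ratios, a difference that was not tested. Wfs1HZ replicate 1 and WT replicate 3 had hormone ratios of 0.438 and 0.422 and factor ratios of 0.535 and 0.303. Replicate 4 of Wfs1HZ and of WT had hormone ratios of 2.25 and 2.30 and factor ratios of 0.742 and 0.552.

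**Figure D5:**
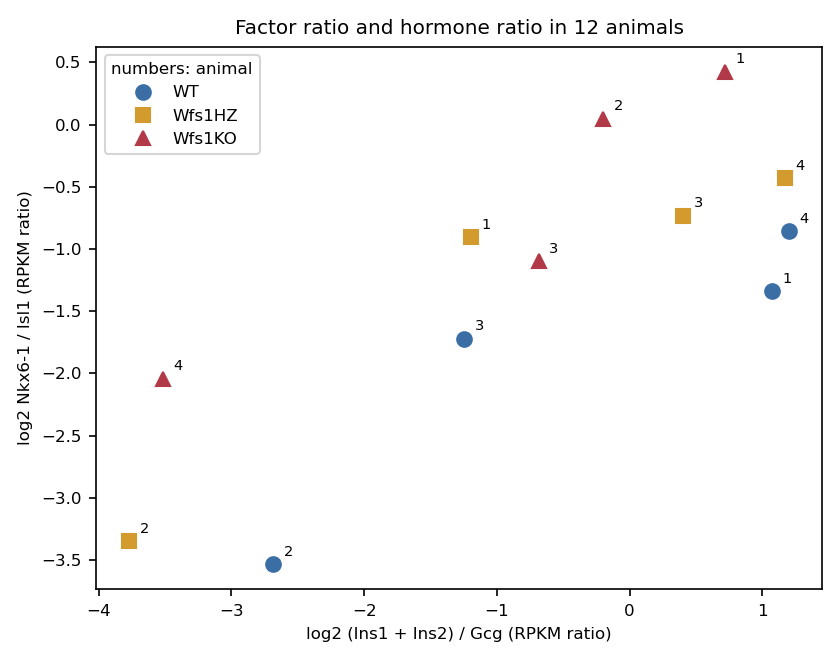
Ratio of Nkx6-1 to Isl1 (y axis, log2) against the ratio of Ins1 plus Ins2 to Gcg (x axis, log2) in 12 animals, numbered by replicate. The lowest factor ratios, 0.0863, 0.0983 and 0.243 before the log, belong to the animals with the lowest hormone ratios.

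For each factor the most similar transcripts were sought among 13356 with a mean of at least 1 RPKM, by Pearson r over the 12 animals, as a description. For Isl1 they were Dzip3 and Sim1, a bHLH-PAS factor (0.96 each), and for Pax6 Etv1, an ETS factor (0.95), and Mr1 (0.93). Rfx6 went with Slc38a4, an amino acid transporter (0.95), and Rfesd (0.94). Nkx2-2 was closest to Kcnh2, a potassium channel, and Pld3 (0.93 and 0.92). Foxa2 was closest to 2610001J05Rik (0.93) and Ppp2r4 (0.92), Neurod1 to Kif1a, a kinesin motor, and Celf4, an RNA-binding protein (0.92 each), and Pdx1 to Gse1 and Mosc2 (0.93 and 0.90). The most similar transcripts to Nkx6-1 were Scg2, a granin of the secretory granule, with a mean of 1445 RPKM, and Jak3 (0.88 and 0.87).

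Of 34 other transcription factors of the islet, all in the table, 33 were tested. Between Wfs1KO and WT 3 had an unadjusted p under 0.05, 2 higher and 1 lower, against 5.64% of all transcripts. The count was 0 between Wfs1KO and Wfs1HZ and 1, lower, between Wfs1HZ and WT, against 2.45% and 2.35% of all transcripts. With 33 genes, these counts are close to what the shares give. None had an adjusted p under 0.05 by limma, and the median log2 difference of the list was -0.06, -0.04 and 0.04. Nr4a1, an immediate-early nuclear receptor, had 16.5 ± 3.50 RPKM in Wfs1KO against 11.6 ± 2.65 in WT islets (SD, n = 4 each, unadjusted p = 0.048 by limma). Neurod2, a bHLH relative of Neurod1, had 0.375 ± 0.0858 RPKM in Wfs1KO against 0.1 ± 0.0688 in WT islets (SD, n = 4 each, unadjusted p = 0.0136 by limma), levels near that of 3 reads, which is 0.0998 to 0.436 RPKM over the libraries. St18, a zinc-finger factor, was at 31.9 ± 9.12 RPKM in Wfs1HZ and 48.4 ± 8.72 in WT islets (SD, n = 4 each, unadjusted p = 0.0268 by limma). Without Wfs1KO replicate 4 the count between Wfs1KO and WT was 6 of 33. In the fit without Wfs1KO replicate 3, the same as that without the libraries that stand apart, it was 2. The share over all transcripts was not counted in these fits.

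Of 28 genes known as targets of the members, 7 had an unadjusted p under 0.05 between Wfs1KO and WT, against 5.64% of all transcripts, 6 lower and 1 higher. The count was 2, both lower, between Wfs1KO and Wfs1HZ and 1, lower, between Wfs1HZ and WT, against 2.45% and 2.35% of all transcripts. By limma 0 had an adjusted p under 0.05 in any comparison. The median log2 difference of the 28 was -0.45 between Wfs1KO and WT. Slc30a8, the zinc transporter of insulin granules, had 76.33, 69.06, 70 and 37.19 RPKM in WT and 13.33, 17.31, 16.44 and 53.89 in Wfs1KO islets. As with Pax6 and Isl1, Wfs1KO replicate 4 lay inside the WT range and the other Wfs1KO animals lay below it. The log2 difference of Slc30a8 was -1.51 (SE 0.43, adjusted p = 0.835 by limma and p = 0.057 by the exact two-sided permutation test).

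The other target genes lower in Wfs1KO than in WT at the unadjusted threshold serve glucose entry, membrane potential, incretin signalling, folding and exocytosis. Slc2a2, the glucose transporter GLUT2, had 3.50 ± 0.875 RPKM in Wfs1KO, 7.73 ± 3.41 in WT and 8.75 ± 4.62 in Wfs1HZ islets (SD, n = 4 each), and every Wfs1KO animal was below every Wfs1HZ animal. The log2 differences of the rest against WT were -0.66 for Kcnj11 (SE 0.24), a subunit of the ATP-sensitive potassium channel, -1.33 for Gipr (SE 0.51), an incretin receptor, -0.87 for Ero1lb (SE 0.32), an oxidase that serves insulin folding, and -0.56 for Syt13 (SE 0.24), a synaptotagmin. Nnat, a small membrane protein of the endoplasmic reticulum, was higher by 0.78 (SE 0.23), with no overlap between the animals. Pcsk2, a convertase of prohormones, was the gene lower in Wfs1HZ than in WT, by a log2 difference of -0.64 (SE 0.26), and the count of 1 there ran from 0, without any of the WT animals or Wfs1HZ replicate 2, to 4, without Wfs1HZ replicate 3. The insulin genes varied widely between animals, from 4981 to 91587 RPKM for Ins1 and from 6423 to 76687 for Ins2, and the exact permutation test between Wfs1KO and WT gave p = 0.543 and 0.2. Reads that Ins1 and Ins2 share cannot be divided here.

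The count of 7 depended on single libraries. It was 3 without Wfs1KO replicate 3, 4 without WT replicate 1 or WT replicate 4, and 9 without WT replicate 2. Median-of-ratios scaling and scaling without acinar markers and hormones also gave 9. Leaving out the libraries that stand apart is, between Wfs1KO and WT, the same fit as leaving out Wfs1KO replicate 3. The share over all transcripts was not counted in these fits. The count of 2 between Wfs1KO and Wfs1HZ rose to 7 when Wfs1HZ replicate 2 was left out, and fell to 1 when Wfs1HZ replicate 3 or any of Wfs1KO replicates 1 to 3 was. The summed level of 5 beta markers had a median of 94735 RPKM in WT (31970 to 179686), 85675 in Wfs1HZ (12485 to 137596) and 55948 in Wfs1KO islets (22265 to 91330), with none at 0. Of 4 endothelial, 7 duct and 11 acinar markers, 4, 4 and 4 had a positive log2 difference between Wfs1KO and WT. The medians were 0.74, 0.20 and -0.20 there, and 0.78, 0.02 and -0.18 between Wfs1HZ and WT. Stromal markers had medians of 1.10 and 0.91 in the same comparisons. Alpha, delta, PP, immune and neural markers had medians of -0.22, -0.23, 0.94, 0.14 and 0.07 between Wfs1KO and WT. The endothelial, duct and acinar lists each held 1 gene with an unadjusted p under 0.05 between Wfs1KO and WT, against 5.64% of all transcripts. The endothelial gene Cdh5 had a higher level in Wfs1KO than in WT islets, at 28.5 ± 2.28 against 11.895 ± 5.0004 RPKM (SD, n = 4 each, unadjusted p = 0.000945 by limma), without overlap. The duct gene was Sox9, at 6.94 ± 0.203 against 4.24 ± 0.960 RPKM (SD, n = 4 each, unadjusted p = 0.00808 by limma). The acinar gene was Bhlha15, a transcription factor, at 10.7 ± 4.18 RPKM in Wfs1KO, 5.91 ± 1.36 in WT and 3.09 ± 0.918 in Wfs1HZ islets (SD, n = 4 each). The part of cell composition in the levels of the target genes was not tested.

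The libraries keep no strand, so reads of a gene and of an antisense partner over the same bases cannot be told apart. Of 8 antisense or neighbouring transcripts looked for, 3 have an entry. Pax6os1, on the strand opposite to Pax6 and sharing 1431 bases of gene span with it, was at 1.22 to 3.26 RPKM over the 12 animals, and its log2 difference between Wfs1KO and WT was -0.76 with a standard error of 0.35 (unadjusted p = 0.0543 by limma). Nkx2-2as was at 0.23 to 2.50 RPKM. Elp4, the neighbour of Pax6 whose span does not overlap it, had 8.79, 6.66, 5.41 and 5.61 RPKM in WT and 3.55, 4.17, 3.29 and 2.43 in Wfs1HZ islets, with no overlap (log2 difference -0.96, SE 0.29, adjusted p = 1 by limma and p = 0.029 by the exact two-sided permutation test). Of 11 genes used as a ubiquitous reference, Hprt had an unadjusted p under 0.05 in a comparison, with 61.015 ± 15.4 RPKM in Wfs1KO and 40.8 ± 5.99 in Wfs1HZ islets (SD, n = 4 each, unadjusted p = 0.0495 by limma and p = 0.114 by the exact two-sided permutation test).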

How the data were processed

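Islet RNA of 12 male mice, 4 per genotype, was analysed, and samples were grouped by the titles in the labels. The authors made cDNA with the Ovation RNA-Seq System V2, sequenced on a SOLiD 5500xl, mapped reads to mm10 with LifeScope and tested with edgeR. The authors deposited RPKM values without log transformation, with 1 column per animal. The annotation and the counting tool are not given in the sources used here, and the counts themselves were not used. Scaling to the total means that an abundant RNA lowers the RPKM of others.

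RPKM were tested as log2(RPKM + 0.1) with limma 3.58.1 (R 4.3.3) with a variance trend, each pair of genotypes fitted alone, with Benjamini-Hochberg adjustment over the 21701 transcripts whose mean reached 0.1 RPKM. A fold change is on the log2(RPKM + 0.1) scale and understates that of low genes. Exact permutation tests compared 4 against 4 animals. Depth was estimated from 633 short RNA genes under 200 nt whose values are whole multiples of 1 read: 96.2% to 100% of 57 to 110 low values per library were whole within 0.05 reads, and the estimates were 2190000 to 9567000 reads. Nothing in the sources says which samples share a litter or day, so p-values measure the spread between these animals. The main tests did not pair the samples by replicate number. Deviations from the genotype mean had correlations of -0.28 to 0.34 between animals of the same number. Wfs1HZ replicates 2 and 4 were closest to the WT animal of their own number (0.31 and 0.34), and the other animals compared were not. These correlations cannot show whether animals of the same number share a litter or day.

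Coordinates and GC content come from GENCODE M21 (20716 of 24078 entries matched, 86.0%), promoter windows from RefSeq (GRCm38.p6), with 250 bases kept. Tables were made in Python 3.11.15 (pandas 2.3.3, numpy 2.4.6), permutation tests in scipy 1.17.1 and plots in matplotlib 3.10.9. The procedure was tested on simulated data.

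The members and gene lists were chosen with earlier results of these data known. Named in the text are all members, every gene of a list with an unadjusted p under 0.05 in a comparison, and the 2 transcripts most similar to each member. The values of 1 listed gene that meets this rule are not reported here. The alternatives were pseudocounts of 1 and 0.01, a filter at 1 RPKM or none, scaling by median ratios, scaling without acinar markers and hormones, all 12 samples in a single fit, a block for the replicate number, and leaving out each animal in turn. Leaving out Wfs1HZ replicates 2 and 4 and Wfs1KO replicate 3 was added after the data were seen. Between Wfs1KO and WT it is the same fit as leaving out Wfs1KO replicate 3.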

Additional observations from a re-analysis of the deposited data

Results flagged for a closer look

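In groups of 4 animals, a value is listed here when its gap to the next animal takes up more of the range of the group than Dixon's 95% critical value allows. Of 27 groups of 4, 4 had such a value. Chance gives about 1 in 20, which cannot be set against this count, since both Mafa groups hold 3 zeros and 1 value and meet the criterion by construction. Neurod1 had 32.32 RPKM in WT replicate 3, while the other WT animals had 53.18 to 55.46 RPKM, and 24.36 RPKM in Wfs1KO replicate 3, while the other Wfs1KO animals had 48.21 to 53.12 RPKM. The acinar marker sums of these 2 libraries were 106495 and 252821 RPKM, the highest of their genotypes, but WT replicate 4, with 104929 RPKM, had 53.18 RPKM of Neurod1. The part of acinar RNA in the Neurod1 level was not tested. Mafa had 0.35 RPKM in Wfs1HZ replicate 1 and 0.11 RPKM in Wfs1KO replicate 3, with the other animals of both genotypes listed at 0. These stand for 2.00 and 0.956 reads over the coding length, under the floor of 3 reads.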

How the results depend on the processing

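The count of members with an adjusted p under 0.05 was 0 in each of the 3 comparisons under all alternatives run. Unadjusted, it was 1 instead of 0 after median-of-ratios scaling between Wfs1KO and WT (Pax6) and between Wfs1HZ and WT (Rfx6), and 1 with the replicate block between Wfs1HZ and WT (Rfx6). With each animal left out it ranged from 0 to 2 (Pax6 and Isl1 without Wfs1KO replicate 4) and from 0 to 1 (Rfx6 without WT replicate 4) in these comparisons. The share over all transcripts at the unadjusted threshold was not counted under these alternatives, so the member counts cannot be set against it. With the replicate block no other call of a member changed. The count of all transcripts with an adjusted p under 0.05 between Wfs1KO and WT, 3 as reported, was 0 with a pseudocount of 1, 1 in a single fit of all samples, 0 with the replicate block and 0 to 1 with each animal left out. Leaving out the libraries that stand apart, here the fit without Wfs1KO replicate 3, gave 0. Between Wfs1HZ and WT it was 1 with no filter.

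The sign of a member's difference was not fixed by 4 animals a group: it turned in 25 of 192 fits with an animal left out and in 6 of 216 other fits. The turns of Neurod1, Nkx2-2 and Rfx6 between Wfs1KO and WT without Wfs1KO replicate 3 stand in both counts. With an animal left out the log2 difference between Wfs1KO and WT ran from -0.23 to 0.42 for Foxa2, -0.37 to 0.088 for Neurod1, -0.56 to 0.0801 for Nkx2-2, -0.10 to 0.60 for Pdx1 and -0.58 to 0.0789 for Rfx6. Between Wfs1KO and Wfs1HZ it ran from -0.60 to 0.0065 for Isl1, -0.21 to 0.36 for Nkx2-2, -0.025 to 0.83 for Nkx6-1, -0.32 to 0.058 for Pax6, -0.059 to 0.63 for Pdx1 and -0.070 to 0.59 for Rfx6. Between Wfs1HZ and WT it ran from -0.21 to 0.57 for Nkx6-1 and -0.30 to 0.11 for Pdx1. Median-of-ratios scaling turned Pdx1 between Wfs1HZ and WT (0.0072). Without the libraries that stand apart, a setting added after the data were seen, the values that turned were 0.088 (Neurod1), 0.066 (Nkx2-2) and 0.079 (Rfx6) between Wfs1KO and WT, 0.033 (Isl1) between Wfs1KO and Wfs1HZ, and 0.28 (Pdx1) between Wfs1HZ and WT. The cause was not tested. The sign held under all alternatives run for 11 of the 24 differences, among them those of Pax6 (-0.69 to -0.31), Isl1 (-0.97 to -0.37) and Nkx6-1 (0.20 to 0.96) between Wfs1KO and WT, Foxa2 (0.30 to 0.74) between Wfs1KO and Wfs1HZ and Rfx6 (-0.71 to -0.32) between Wfs1HZ and WT. The values of Mafa lie under the level of 3 reads over its coding length. Over the annotated transcript the value of Wfs1HZ replicate 1 would stand for 5.07 reads. For the other members the lowest value rests on about 24.8 reads (Foxa2 in WT replicate 3), counted over the annotated transcript.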
